A study of Rattus norvegicus with 12 samples.

Results

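The contractile apparatus of the heart muscle cell was followed through 36 genes, listed by name for the thin filament, the thick filament, the M-band, the Z-disc, the costamere and the chaperones that build these structures. Rows were matched by gene symbol, and 35 of the 36 were found among the 17602 genes of the expression table, each once. Tcap (telethonin) is not analysed here. All 35 passed the filter on low values, which left 10526 genes for testing.

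In a sarcomere, myosin of the thick filament pulls on actin of the thin filament when calcium binds the troponin complex and tropomyosin moves aside. Z-discs anchor the thin filaments and M-bands hold the thick filaments in register. Costameres and desmin filaments tie the Z-discs to the cell membrane, and chaperones fold myosin and protect the filaments. In the ventricle these genes give some of the most abundant messenger RNAs outside the mitochondrial genome, and mutations in many of them cause inherited cardiomyopathy.

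Cardiac muscle RNA was sequenced from 12 ZSF1 rat samples in 3 groups of 4: lean, obese, and obese with nicotinamide (NAM, a vitamin B3 form and precursor of NAD+). The treated rats drank NAM at 24 mM, starting at week 8 of life and ending at week 20. All rats were ZSF1 animals with free access to food. The obese ZSF1 line is known for defective copies of the leptin receptor gene and for high blood pressure, while the labels name the obesity as induced by diet and give no genotype. For the untreated groups the age, and for all groups the sex and the chamber sampled, were not given in the sources used here. Whether each came from its own animal is not stated either, so that p-values measure the spread between these samples only.

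Expression was given in TPM, a length-corrected share of each sample's transcripts that adds up to one common total. Levels in TPM can be set side by side between genes, but read depth is lost in this unit and remains unknown. Mitochondrially encoded transcripts took 69.1 ± 1.97% of TPM in lean hearts, 75.1 ± 0.376% in obese ones and 71.3 ± 1.69% after NAM (mean ± SD, n = 4), and the remaining genes shared what was left. The median gene tested shifted by -0.20 (log2) from lean to obese. With NAM it shifted by 0.25 relative to obese and by 0.05 relative to lean. Each result is therefore given as deposited and again after rescaling, in which a sample was divided by the median, over genes, of its ratio to the geometric mean of the 12 samples. Rescaling put the 3 shifts at 0.00, -0.01 and 0.00. A gene was called when limma's adjusted p, over all genes tested, was under 0.05.

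The tissue label was checked against marker genes. All 9 heart muscle cell markers listed were measured, and their summed TPM ran from 9986 to 11615 in lean samples, 6721 to 7782 in obese ones and 9056 to 10419 after NAM. After rescaling these sums were 9685 to 10614, 7680.1 to 9252 and 8649 to 9109, so that lean samples stood above all others there, whereas as deposited lean and NAM-treated samples overlapped. Mb made up most of each sum, with 6263 to 7024 TPM in lean samples as deposited. Only Mb and Myh6 were lower in every NAM-treated than in every lean sample as deposited, and the other markers overlapped. Single markers were not compared after rescaling. Of 10 skeletal muscle markers 6 were measured, with a summed level between 2.16 and 5.45 TPM in any sample. Obese replicate 3 had the highest sums of fibroblast, macrophage and erythroid markers of the 12 samples (761, 67.6 and 4018 TPM, over 8, 7 and 4 measured markers). In lean samples the same 3 sums ran from 478 to 517, 27.5 to 38.8 and 721 to 1593 TPM, in the 4 obese samples from 411 to 761, 16.8 to 67.6 and 1661 to 4018, and in NAM-treated samples from 413 to 528, 31.9 to 39.4 and 485 to 2300.2. In bulk tissue, fewer muscle cells and less RNA per muscle cell cannot be told apart.

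Among the 35 genes, 7 had a mean above 1000 TPM over the 12 samples, 17 above 100 and 32 above 10. The regulatory light chain Myl2 led with 5782 TPM, ahead of troponin T (Tnnt2, 5079.7) and cardiac actin (Actc1, 3052). Synpo2l, a Z-disc actin-binding protein, was lowest with 4.80 TPM. Together the 35 genes made up 9.60 ± 0.137% of the TPM outside the mitochondrial genome in lean hearts, 8.69 ± 0.596% in obese ones and 9.27 ± 0.246% after NAM (mean ± SD, n = 4).

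Most of these genes were lower in obese than in lean hearts as deposited, and few of those calls stood after rescaling. As deposited, 26 of the 35 fell and 0 rose, where limma called 16.5% of all genes lower and 0.352% higher. At an unadjusted p under 0.05, 33 were lower and 0 higher, against 32.5% and 1.32% of all genes. The median change of the 35 was -0.48 on the log2 scale against -0.20 for all genes. After rescaling 4 fell, Cavin4, Myl3, Cmya5 and Ldb3, and 0 rose, against 0.751% lower and 0.589% higher among all genes, with a median of -0.22 against 0.00. At an unadjusted p under 0.05, 20 were lower and 0 higher on that scale, against 8.54% and 8.14% of all genes. In 12 of the 35 every rescaled obese value lay below every lean value, which held in 5.31% of all genes, and in 0 every value lay above, as in 4.26% of all genes. For deposited values this share of all genes was not counted. The rescaled count of falls ran from 1 to 7 with 1 sample left out. Over all genes the count of falls moved too. It was 79 with all samples, and ran from 14 without lean replicate 3 to 104 without obese replicate 1. The count among the 35 behaved as follows. It was 1 without lean replicates 1, 2 or 3 or obese replicates 3 or 4, 2 without lean replicate 4, obese replicate 2 or NAM-treated replicates 1, 2 or 3, 3 without NAM-treated replicate 4, and 7 without obese replicate 1.

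NAM-treated hearts showed the opposite order against untreated obese hearts. As deposited 27 of the 35 rose and 0 fell, where 28.8% of all genes were called higher and 0.466% lower, and at an unadjusted p under 0.05 the counts were 32 and 0, against 41.4% and 1.07% of all genes. The median was 0.41 against 0.25 for all genes. After rescaling Cmya5 alone rose and 0 fell, against 0.2% higher and 0.513% lower among all genes, with a median of 0.10 against -0.01. At an unadjusted p under 0.05, 9 were higher and 3 lower, against 7.27% and 8.42% of all genes. All 35 changes lay above 0 as deposited, and after rescaling 25 lay above and 10 below, the latter being Tnnt2, Tnni3, Tnnc1, Tpm1, Myl2, Myl3, Myoz2, Csrp3, Pdlim1 and Cryab. Rescaled values did not overlap in 7 genes that were higher with NAM (4.87% of all genes) and in 1, Myoz2, that was lower (4.3%). The rescaled count of 1 became 0 without obese replicate 4 or NAM-treated replicates 1 or 3, and 2 without obese replicate 2. Over all genes 21 rose with all samples, and that count is not given here for these 4 settings. Both comparisons use the same 4 obese samples, so the fall against lean and the rise with NAM are not independent of each other.

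Directly against lean hearts, NAM-treated hearts were lower in 2 of the 35 as deposited, Myl3 and Myoz2, and higher in 0, where 0.969% and 0.865% of all genes were called lower and higher. Unadjusted, 8 were lower and 3 higher at p under 0.05, against 6.39% and 10.6% of all genes. After rescaling 5 were lower, Myl3, Myoz2, Cavin4, Tnni3 and Tpm1, and 0 higher, against 1.59% and 0.77% of all genes. Unadjusted, the rescaled counts were 14 lower and 3 higher, against 9.41% and 7.42% of all genes. Rescaled values were all lower with NAM in 13 genes (6.35% of all genes) and all higher in 3, Myom2, Nebl and Smyd1 (5.84%). The deposited count of 2 became 0 without NAM-treated replicate 3 and 1 without lean replicates 1, 2 or 4, obese replicates 1 or 4 or NAM-treated replicates 1, 2 or 4. The rescaled count of 5 became 3 without obese replicate 4 or any 1 of the lean or NAM-treated samples, and was 7 without obese replicate 1. Over all genes 167 were lower with all samples, and that count is not given here for the samples left out. Whether these shifts are particular to the 35 genes was therefore not tested.

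**Figure D1:**
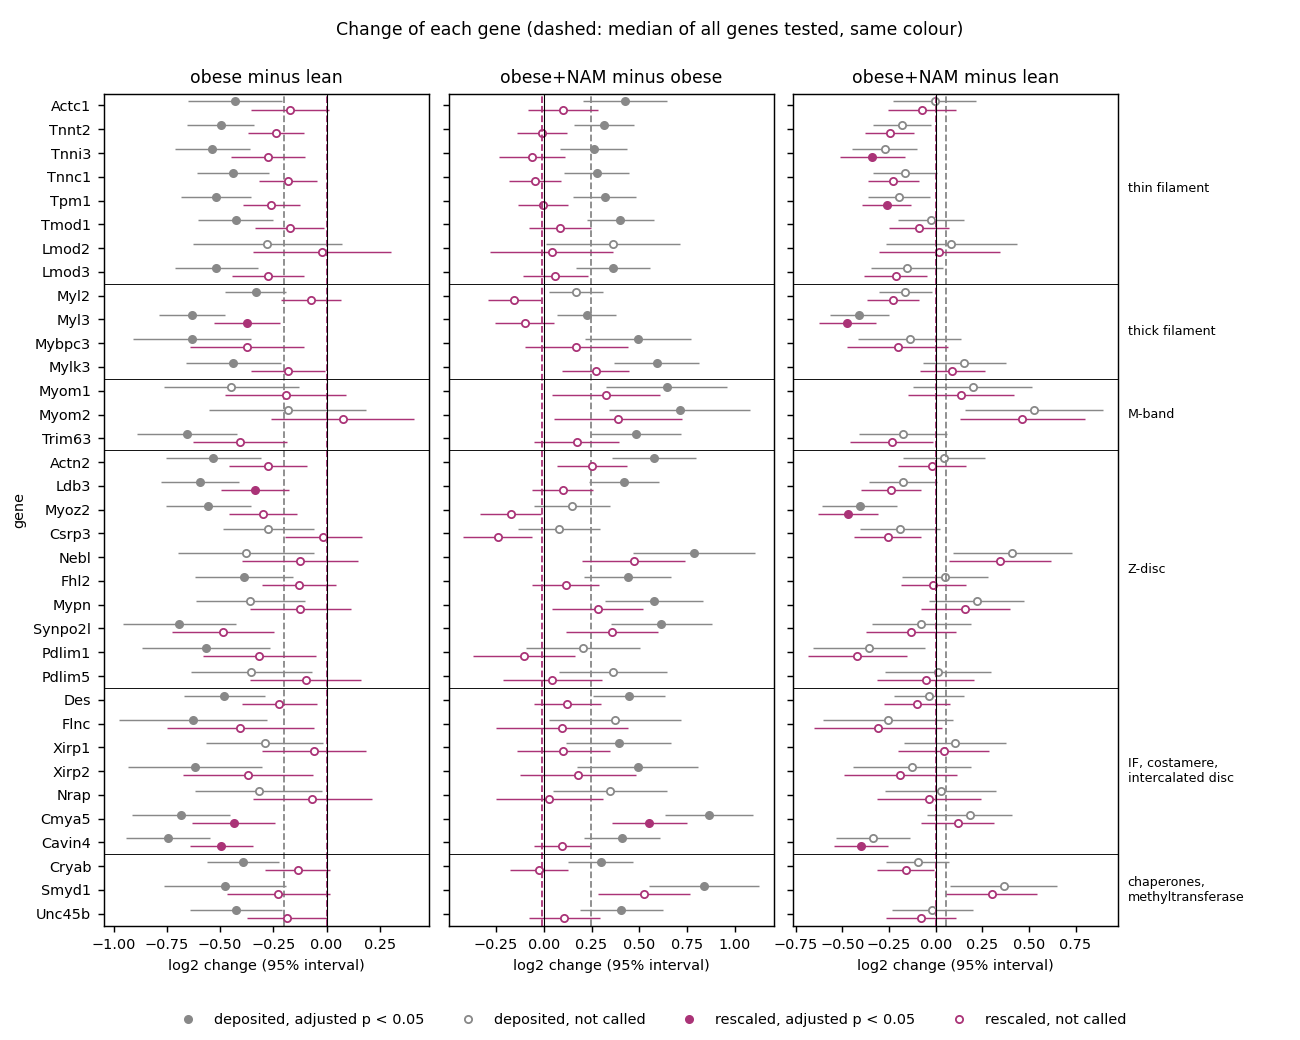
Log2 change of each of the 35 genes in the 3 comparisons, with limma's 95% interval, as deposited (grey) and rescaled (purple); filled points had an adjusted p under 0.05 and dashed lines mark the median of all genes tested. In obese minus lean the 35 deposited values lie between -0.75 and -0.18, and 4 rescaled points are filled.

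Promoter sequences, from 250 bases before to 50 after the annotated start, were taken from RefSeq for GRCr8, a newer assembly than the Rnor_6.0 of the expression table, and matched by symbol for 29 of the 36 genes, using the first start listed for each. They are printed for the 4 genes called between obese and lean hearts after rescaling, so that the letters upstream of them can be read. Capitals mark matches to the motifs searched on both strands, which were the SRF CArG box, MEF2, CATTCC (bound by TEAD factors), AGATAA (bound by GATA factors) and TATAAA. The windows are Cavin4 at chr5:67792182-67792481, plus strand, Myl3 at chr8:119616844-119617143, plus strand, Ldb3 at chr16:9924630-9924929, minus strand and Cmya5 at chr2:26113224-26113523, minus strand.
Cavin4: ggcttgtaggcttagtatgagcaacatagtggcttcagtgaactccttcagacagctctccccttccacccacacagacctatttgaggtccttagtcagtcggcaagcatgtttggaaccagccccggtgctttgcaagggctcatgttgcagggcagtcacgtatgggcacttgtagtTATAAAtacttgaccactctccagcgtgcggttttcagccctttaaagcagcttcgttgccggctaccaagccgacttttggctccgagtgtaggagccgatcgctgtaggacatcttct
Myl3: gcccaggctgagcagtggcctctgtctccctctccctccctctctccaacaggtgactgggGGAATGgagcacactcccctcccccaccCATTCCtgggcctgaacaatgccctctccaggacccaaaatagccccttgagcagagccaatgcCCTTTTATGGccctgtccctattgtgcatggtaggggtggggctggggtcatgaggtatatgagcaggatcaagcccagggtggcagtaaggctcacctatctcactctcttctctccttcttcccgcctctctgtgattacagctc
Ldb3: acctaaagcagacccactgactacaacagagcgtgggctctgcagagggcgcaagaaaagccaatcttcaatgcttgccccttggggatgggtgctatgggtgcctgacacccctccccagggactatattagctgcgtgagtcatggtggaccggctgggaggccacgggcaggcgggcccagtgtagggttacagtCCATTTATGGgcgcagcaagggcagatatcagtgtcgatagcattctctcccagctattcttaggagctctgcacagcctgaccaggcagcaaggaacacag
Cmya5: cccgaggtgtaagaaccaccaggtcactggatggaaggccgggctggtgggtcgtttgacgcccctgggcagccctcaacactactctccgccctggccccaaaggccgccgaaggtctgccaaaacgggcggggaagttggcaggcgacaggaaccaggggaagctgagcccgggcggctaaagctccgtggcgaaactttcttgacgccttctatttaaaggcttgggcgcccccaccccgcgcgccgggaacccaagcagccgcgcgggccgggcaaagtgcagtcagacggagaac

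Myl3 and Ldb3 each held a CArG box, the letters that serum response factor binds, Myl3 also held CATTCC on both strands, Cavin4 held TATAAA, and no searched letters lie in the Cmya5 window. A CArG box was found in 5 of the 29 promoters (17.2%, Actc1, Fhl2, Ldb3, Myl3 and Nebl) against 1.64% of 27457 genes with a promoter listed. MEF2 letters lay in 6 (20.7% against 3.37%), among them Myoz2 and Mybpc3. CATTCC was held by 27.6% against 13.9%, AGATAA by 20.7% against 11.3% and TATAAA by 17.2% against 14.3%. The TATAAA and MEF2 letters of Fhl2 overlap.

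Of 8 thin filament genes, 7 fell in obese hearts and 7 rose with NAM as deposited, with Lmod2, a leiomodin that lengthens actin filaments, outside both calls (log2 change -0.28 and 0.36, adjusted p 0.246 and 0.106). On that scale 16.5% of all genes fell in obese hearts and 28.8% rose with NAM. After rescaling limma called 0 in either comparison, and at an unadjusted p under 0.05 the counts were 6 lower in obese hearts and 0 higher with NAM, where 8.54% and 7.27% of all genes were so on this scale. The NAM medians were 0.34 as deposited and 0.02 rescaled, where Tnnt2, Tnni3, Tnnc1 and Tpm1 lay slightly below 0 (-0.01, -0.06, -0.05 and -0.0040).

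Tnnt2, the troponin subunit that binds tropomyosin, stood at 6663, 5631, 5473 and 5801 TPM in lean, 4240.5, 4226, 3854 and 4334 in obese and 5401, 4781, 5112 and 5443 in NAM-treated hearts. Lean and obese samples did not overlap, and the NAM-treated samples lay between them. After rescaling lean and obese Tnnt2 still did not overlap, but NAM-treated samples overlapped with obese ones. Its change was -0.50 between obese and lean (SE 0.07, limma adjusted p = 0.00193) and 0.32 with NAM (adjusted p = 0.00827), against -0.24 and -0.01 rescaled (adjusted p = 0.0769 and 0.964). The inhibitory subunit Tnni3 stood at 2540.3, 2089, 2067 and 2063 TPM in lean, 1672, 1468, 1453 and 1435 in obese and 1932, 1727, 1707 and 1857 in NAM-treated hearts. Tnnc1, the calcium-binding subunit, stood at 2256, 1891, 1856 and 2003 TPM in lean, 1529, 1489, 1362 and 1511 in obese and 1860.0, 1583, 1811 and 1893 in NAM-treated hearts. In both, every obese sample lay below every lean and every NAM-treated sample, whereas after rescaling obese samples overlapped with both other groups. Tnni3 fell by 0.54 and Tnnc1 fell by 0.44 on the log2 scale against lean (adjusted p = 0.00246 and 0.00430). With NAM they rose by 0.26 and 0.28 as deposited (adjusted p = 0.0307 and 0.0216). The Tnni3 rise ended without obese replicates 2, 3 or 4 or NAM-treated replicates 1 or 4 (adjusted p 0.0564 to 0.0896), and the Tnnc1 rise without obese replicate 3 or NAM-treated replicates 1, 3 or 4 (0.0528 to 0.0630).

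Tropomyosin (Tpm1), which covers the myosin sites on actin, stood at 3466, 2814, 2859 and 2938 TPM in lean, 2106, 2207, 1966 and 2128 in obese and 2806, 2446, 2513 and 2741 in NAM-treated hearts. Obese samples were the lowest without overlap. Rescaled, they stayed below all lean samples and overlapped with NAM-treated ones. After rescaling Tnni3 and Tpm1 were lower in NAM-treated than in lean hearts (-0.34 and -0.26, adjusted p = 0.0480 and 0.0442), and these 2 calls were close to the threshold. Each of them ended for 10 of the 12 samples left out in turn (adjusted p 0.0536 to 0.138 and 0.0524 to 0.131), the exceptions being obese replicates 1 and 2 for Tnni3 and obese replicates 1 and 3 for Tpm1.

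Tmod1, which caps the pointed end of the actin filament, stood at 57.7, 51.1, 54.5 and 60.9 TPM in lean, 43.0, 42.6, 36.9 and 43.3 in obese and 59.0, 52.8, 53.9 and 54.2 in NAM-treated hearts. It fell against lean (log2 change -0.43, adjusted p = 0.00549) and rose with NAM (0.40, 0.00543), without overlap in either comparison. Rescaled, the changes were -0.17 and 0.08 (adjusted p = 0.267 and 0.631), with overlap in both. Actc1 and Lmod3 were also lower in obese and higher in NAM-treated hearts as deposited, by -0.43 and -0.52 and then 0.43 and 0.36. Their rescaled changes were -0.17 and -0.28 against lean and 0.10 and 0.06 with NAM, none of them called (adjusted p 0.105 to 0.752).

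All 4 thick filament genes fell in obese hearts and all but Myl2 rose with NAM as deposited, and after rescaling Myl3 alone was called, below lean in both obese groups. Of all genes 16.5% fell in obese hearts and 28.8% rose with NAM as deposited. Rescaled, 0.751% of all genes were called below lean in obese and 1.59% in NAM-treated hearts. Myl3, the essential light chain of the ventricular myosin head, stood at 2549, 2123, 2060.3 and 2146 TPM in lean, 1500.2, 1467, 1366 and 1376 in obese and 1635, 1618, 1654 and 1759 in NAM-treated hearts. The 3 groups did not overlap, with obese lowest, NAM-treated between and lean highest. Against lean it fell by 0.63 on the log2 scale in obese (SE 0.07, limma adjusted p = 0.000713) and by 0.41 in NAM-treated hearts (adjusted p = 0.0139). Rescaled, Myl3 was 2329, 2059, 1978 and 2055 in lean, 1784, 1581, 1561 and 1572 in obese and 1396, 1628, 1474 and 1565 in NAM-treated hearts, a change of -0.37 and of -0.47 against lean (adjusted p = 0.0272 and 0.00564). On that scale both obese groups lay below lean, and the sign of the NAM change turned from 0.22 as deposited (adjusted p = 0.0348) to -0.10 (adjusted p = 0.532).

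The deposited Myl3 rise with NAM ended without obese replicates 3 or 4 or NAM-treated replicates 1, 3 or 4 (adjusted p 0.0659 to 0.0951). The rescaled Myl3 call against lean ended for the obese group without any 1 of the 4 lean samples or obese replicates 2, 3 or 4 (adjusted p 0.0515 to 0.0824). For the NAM-treated group it held in all 18 alternatives. As deposited, the NAM-treated call ended only without NAM-treated replicate 3 (log2 change -0.41, adjusted p = 0.0505).

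Myl2, the regulatory light chain that sits beside Myl3 on the same myosin neck, stood at 6739.8, 6587, 6227 and 6254 TPM in lean, 5499, 5242, 4679 and 5083 in obese and 5662, 5282, 6079 and 6045 in NAM-treated hearts. Every lean sample lay above every obese and NAM-treated sample, and obese and NAM-treated samples overlapped. It fell against lean as deposited (-0.33, adjusted p = 0.00626), and after rescaling its change was -0.07 (adjusted p = 0.626), with overlap between obese and lean samples. Mylk3, the kinase that phosphorylates Myl2, stood at 90.6, 69.9, 74.1 and 77.2 TPM in lean, 60.8, 61.2, 53.6 and 52.9 in obese and 97.8, 75.4, 91.9 and 82.1 in NAM-treated hearts. Its NAM-treated samples lay above all obese samples and overlapped with lean ones. Mylk3 rose with NAM by 0.59 (adjusted p = 0.00360), and its rescaled change was 0.27 (95% interval 0.10 to 0.45, adjusted p = 0.133), again without overlap. Mybpc3, myosin-binding protein C, fell in obese hearts (-0.63, adjusted p = 0.00708) and rose with NAM (0.49, 0.0145), and neither call stood after rescaling (-0.37 and 0.17, adjusted p = 0.150 and 0.548).

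All 3 M-band genes rose with NAM as deposited, with a median of 0.64, and 1, Trim63, fell in obese hearts. Among all genes 28.8% rose with NAM, with a median of 0.25, and 16.5% fell in obese hearts. After rescaling limma called 0 of the 3 in any comparison, with a NAM median of 0.33, and at an unadjusted p under 0.05 it had 2 higher with NAM and 1 lower in obese hearts (7.27% and 8.54% of all genes). Myom2, a myomesin that links neighbouring thick filaments, stood at 355, 269, 286 and 259.7 TPM in lean, 307, 326, 199 and 214 in obese and 524, 373, 394 and 399.9 in NAM-treated hearts. The NAM-treated samples were the highest of all 12 without overlap, while obese samples fell into a higher pair (replicates 1 and 2) and a lower pair (replicates 3 and 4). It rose with NAM (0.71, SE 0.17, adjusted p = 0.0108), and its difference from lean was 0.53 (adjusted p = 0.148). Rescaled, the 2 changes were 0.39 and 0.46 (adjusted p = 0.253 and 0.149), and NAM-treated samples overlapped with obese but not with lean ones.

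Myom1, a second myomesin, stood at 76.7, 60.4, 66.8 and 66.3 TPM in lean, 55.4, 64.5, 37.0 and 43.7 in obese and 86.2, 68.4, 77.1 and 78.6 in NAM-treated hearts. Obese replicates 3 and 4 were the lowest of the 12 samples. It rose with NAM (0.64, adjusted p = 0.00834), and its difference of -0.45 between obese and lean missed the threshold (adjusted p = 0.0537). Trim63 (MuRF1), a ubiquitin ligase of the M-band that marks sarcomere proteins for breakdown, stood at 32.3, 27.3, 29.1 and 37.8 TPM in lean, 21.5, 20.7, 17.3 and 18.9 in obese and 28.1, 25.3, 26.8 and 30.8 in NAM-treated hearts. Its obese samples lay below all others, and rescaled they stayed below lean samples but overlapped with NAM-treated ones. Trim63 fell against lean (-0.66, adjusted p = 0.00348) and rose with NAM (0.48, 0.00816), against -0.41 and 0.17 rescaled (adjusted p = 0.0737 and 0.450).

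Of 10 Z-disc genes, 6 fell in obese hearts and 6 rose with NAM as deposited, and after rescaling 1, Ldb3, was called between obese and lean and 0 with NAM (4 higher and 2 lower at an unadjusted p under 0.05, as 7.27% and 8.42% of all genes). By adjusted p, 16.5% of all genes fell in obese hearts and 28.8% rose with NAM as deposited, and 0.751% and 0.2% rescaled. Actn2, the alpha-actinin that crosslinks thin filaments, stood at 265, 208, 212 and 227 TPM in lean, 169.5, 178, 138 and 144 in obese and 248, 212, 243 and 235 in NAM-treated hearts. Actn2 fell in obese hearts (-0.53, adjusted p = 0.00575) and rose with NAM (0.58, 0.00382). Its rescaled changes were -0.27 and 0.25 (adjusted p = 0.129 and 0.175), without overlap in either.

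Ldb3 (cypher or ZASP), which binds alpha-actinin, stood at 169, 148, 148 and 148 TPM in lean, 105, 112, 89.2 and 98.5 in obese and 147, 132, 128 and 135 in NAM-treated hearts. The 3 groups did not overlap, with lean highest and obese lowest, whereas rescaled obese and NAM-treated samples overlapped. Its fall against lean was -0.60 as deposited (SE 0.09, adjusted p = 0.00189) and -0.34 rescaled (adjusted p = 0.0457). The rescaled call ended for 11 of the 12 samples left out in turn, all but obese replicate 1 (adjusted p 0.0534 to 0.136).

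Myoz2, a calsarcin that ties alpha-actinin to the phosphatase calcineurin, stood at 602, 537, 502 and 635 TPM in lean, 354, 424, 362 and 405 in obese and 446, 388, 462 and 415 in NAM-treated hearts. Every lean sample lay above every sample of the other 2 groups, which overlapped. It fell against lean in obese hearts (-0.56, adjusted p = 0.00352) and was lower than lean in NAM-treated hearts (-0.41, 0.0443), with a rescaled NAM-treated difference of -0.47 (adjusted p = 0.00619). The rescaled call held in all 18 alternatives. The deposited one ended for 9 of 12 samples left out in turn, all but lean replicate 3 and obese replicates 2 and 3 (adjusted p 0.0520 to 0.119).

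Csrp3, the muscle LIM protein, was the most abundant Z-disc gene and stood at 549, 537, 525 and 595 TPM in lean, 444, 499, 381 and 510.3 in obese and 502, 417, 519 and 497 in NAM-treated hearts. It passed the threshold in 0 of the 3 comparisons on either scale (deposited changes -0.27, 0.08 and -0.19, adjusted p 0.0740 to 0.563). Its NAM change was -0.24 after rescaling (adjusted p = 0.183), below 0 where the deposited one was above. Nebulette (Nebl), which binds the ends of thin filaments at the Z-disc, stood at 64.0, 47.2, 57.1 and 59.9 TPM in lean, 31.3, 53.0, 49.9 and 42.7 in obese and 76.1, 66.8, 78.4 and 82.0 in NAM-treated hearts. Its 4 NAM-treated samples were the highest of the 12, and obese replicate 1 was the lowest. Nebl rose with NAM by 0.79 (adjusted p = 0.00423), with 0.47 rescaled (95% interval 0.20 to 0.74, adjusted p = 0.110).

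Other Z-disc genes called as deposited were Synpo2l (-0.69 against lean and 0.62 with NAM), Fhl2, a LIM-domain adaptor (-0.39 and 0.44), Pdlim1, a PDZ and LIM protein (-0.56 against lean only), and Mypn, myopalladin (0.58 with NAM only). The Fhl2 fall ended without lean replicates 1 or 4 or obese replicates 1 or 3 (adjusted p 0.0567 to 0.0729). Pdlim5 passed in neither comparison (adjusted p = 0.0783 and 0.0519). None of these 5 genes was called after rescaling in the 3 comparisons.

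Genes of the costamere, the intermediate filaments and the intercalated disc had the lowest median of the 6 classes between obese and lean, -0.62 as deposited and -0.37 rescaled over 7 genes. Cavin4 (MURC), a coat protein of muscle caveolae, stood at 54.3, 50.2, 57.5 and 53.1 TPM in lean, 30.4, 35.01, 28.9 and 32.5 in obese and 47.8, 37.4, 40.4 and 44.6 in NAM-treated hearts. Lean samples were the highest, and the 3 groups did not overlap. It fell by 0.75 on the log2 scale in obese hearts (SE 0.09, limma adjusted p = 0.00102), which is 53.8 ± 3.03 against 31.7 ± 2.63 TPM (mean ± SD, n = 4).

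After rescaling Cavin4 read 49.6, 48.7, 55.2 and 50.9 in lean, 36.2, 37.7, 33.1 and 37.1 in obese and 40.8, 37.6, 35.97 and 39.6 in NAM-treated hearts. Lean samples again lay above all 8 others, which overlapped among themselves. Against lean, the rescaled change was -0.49 for obese and -0.40 for NAM-treated hearts (adjusted p = 0.00508 and 0.00973), and both calls held in all 18 alternatives. As deposited, the NAM-treated difference of -0.34 missed the threshold (adjusted p = 0.0940).

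Cmya5 (myospryn), a large costamere protein that binds desmin, stood at 37.8, 33.2, 36.1 and 37.4 TPM in lean, 22.8, 25.5, 18.3 and 22.2 in obese and 47.3, 37.7, 42.2 and 37.5 in NAM-treated hearts. Obese samples lay below all others, and NAM-treated samples overlapped with lean ones. It fell against lean (-0.69, SE 0.11, adjusted p = 0.00265) and rose with NAM (0.87, 0.00283), and it was called in both comparisons after rescaling (-0.44 and 0.55, adjusted p = 0.0392 and 0.0235). The rescaled fall ended for 9 of 12 samples left out in turn, all but obese replicates 1 and 2 and NAM-treated replicate 4 (adjusted p 0.0504 to 0.102). The rescaled rise ended without obese replicate 4 or NAM-treated replicates 1 or 3 (adjusted p 0.0550 to 0.0821).

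Desmin (Des), the muscle intermediate filament, stood at 289, 230.4, 237 and 255 TPM in lean, 193, 198, 162 and 172 in obese and 254, 244, 246 and 240.4 in NAM-treated hearts. Des fell in obese hearts (-0.48, adjusted p = 0.00443) and rose with NAM (0.45, 0.00475), with obese samples lowest and without overlap. Rescaled, obese samples overlapped with both other groups. Filamin C (Flnc), an actin crosslinker, fell in obese hearts (-0.63, adjusted p = 0.0197), a call that ended without lean replicate 1 or obese replicates 3 or 4 (adjusted p 0.0553 to 0.0572). Xirp2, an actin-binding repeat protein of the intercalated disc, fell and rose (-0.62 and 0.49, adjusted p = 0.0140 and 0.0254), and its relative Xirp1 rose with NAM alone (0.39, adjusted p = 0.0350). The NAM calls ended without obese replicates 3 or 4 or NAM-treated replicates 3 or 4 for both, and without NAM-treated replicate 1 for Xirp1 (adjusted p 0.0555 to 0.0723 and 0.0648 to 0.0989). Nrap, which anchors actin at the cell ends, passed in neither comparison (-0.32 and 0.35, adjusted p = 0.123 and 0.0748). Des, Flnc, Xirp1, Xirp2 and Nrap were not called after rescaling.

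All 3 chaperone and methyltransferase genes fell in obese hearts and rose with NAM as deposited, and limma called 0 after rescaling (0 lower and 1 higher at an unadjusted p under 0.05, as 8.54% and 7.27% of all genes). The deposited calls covered 16.5% of all genes for the fall and 28.8% for the rise. Smyd1, a muscle lysine methyltransferase needed for sarcomere assembly, stood at 37.7, 31.6, 29.1 and 35.1 TPM in lean, 19.3, 28.3, 21.1 and 26.9 in obese and 41.8, 37.7, 43.1 and 50.6 in NAM-treated hearts. Its NAM-treated samples lay above all obese samples, and 3 of the 4 lay above the highest lean sample. Smyd1 rose with NAM by 0.84 (SE 0.13, adjusted p = 0.00305), and the rescaled rise of 0.53 just missed the threshold (95% interval 0.28 to 0.77, adjusted p = 0.0567). Its fall against lean (-0.48, adjusted p = 0.0284) ended without lean replicates 1 or 4 or obese replicates 1 or 3 (adjusted p 0.0650 to 0.0821).

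Cryab, the small heat shock protein that protects desmin, stood at 953, 881, 842 and 972 TPM in lean, 738, 727, 608 and 705 in obese and 889.6, 790.4, 847 and 884 in NAM-treated hearts. Obese samples were the lowest without overlap, and rescaled they overlapped with both other groups. Cryab fell in obese hearts (-0.39, adjusted p = 0.00642) and rose with NAM as deposited (0.30, 0.0149), but its rescaled NAM change was -0.03 (adjusted p = 0.897). Unc45b, the myosin-folding chaperone, changed by -0.42 and 0.41 (adjusted p = 0.0140 and 0.0117).

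**Figure D2:**
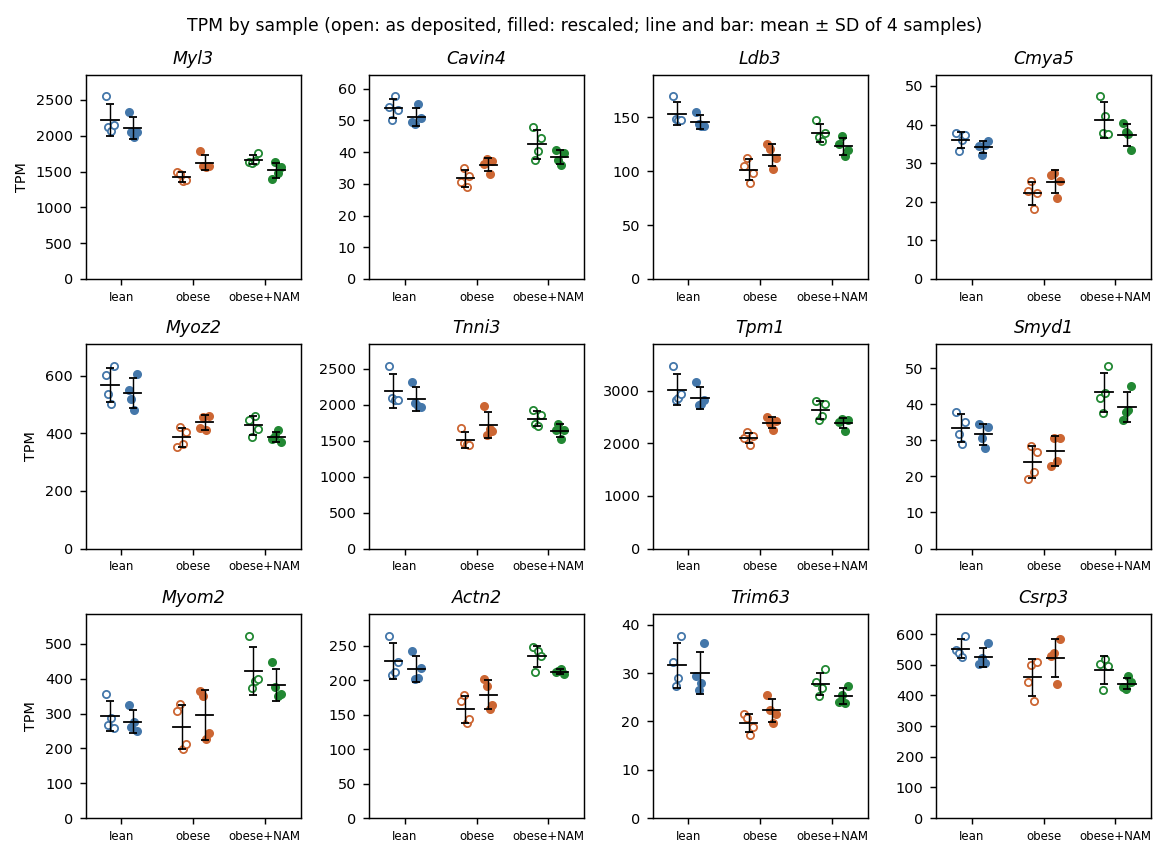
TPM of 12 genes in each sample, open circles as deposited and filled circles rescaled, with the mean and SD of each group of 4; axes start at 0. Myl3, Cavin4 and Myoz2 stay below the lean samples in both obese groups, while Cmya5 and Actn2 are low in the obese group alone.

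Samples within a group also differed from each other. Over the 35 genes the coefficient of variation within a group had a median of 10.5% in lean samples, 11.8% in obese ones and 7.84% after NAM as deposited, and 7.78%, 10.7% and 5.56% after rescaling. Myom2 varied most in both obese groups (24.7% and 16.2% as deposited) and Lmod2 in the lean group (28.1%). Obese replicate 3, the sample with the highest fibroblast, macrophage and erythroid sums, held the lowest obese value of 25 genes as deposited and of 26 rescaled. Lean replicate 1, whose immediate-early sum was 84.3 TPM while the other lean samples reached 21.8 or less, held the highest lean value of 22 and 20 genes. Obese replicate 1 held the highest obese value of 22 genes after rescaling. NAM-treated replicate 1, whose sum of 7 atrial markers was 1141 TPM while the other treated samples ran from 193 to 247, held the highest treated value of 21 genes as deposited and 6 rescaled. The atrial sums were 109 to 181 TPM in the lean and 132 to 600.0 in the obese group. Without obese replicate 3, 23 genes fell against lean and 22 rose with NAM as deposited, and 1 and 1 rescaled. Over all genes 1073 fell and 2031 rose there as deposited, against 1733 and 3028 with all samples. Without lean replicate 1, 23 fell against lean as deposited and 1 rescaled, and over all genes 984 and 24. How often each sample held the extreme value of its group over all genes tested was not counted. The part of these samples' other features in the gene differences was not tested.

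**Figure D3:**
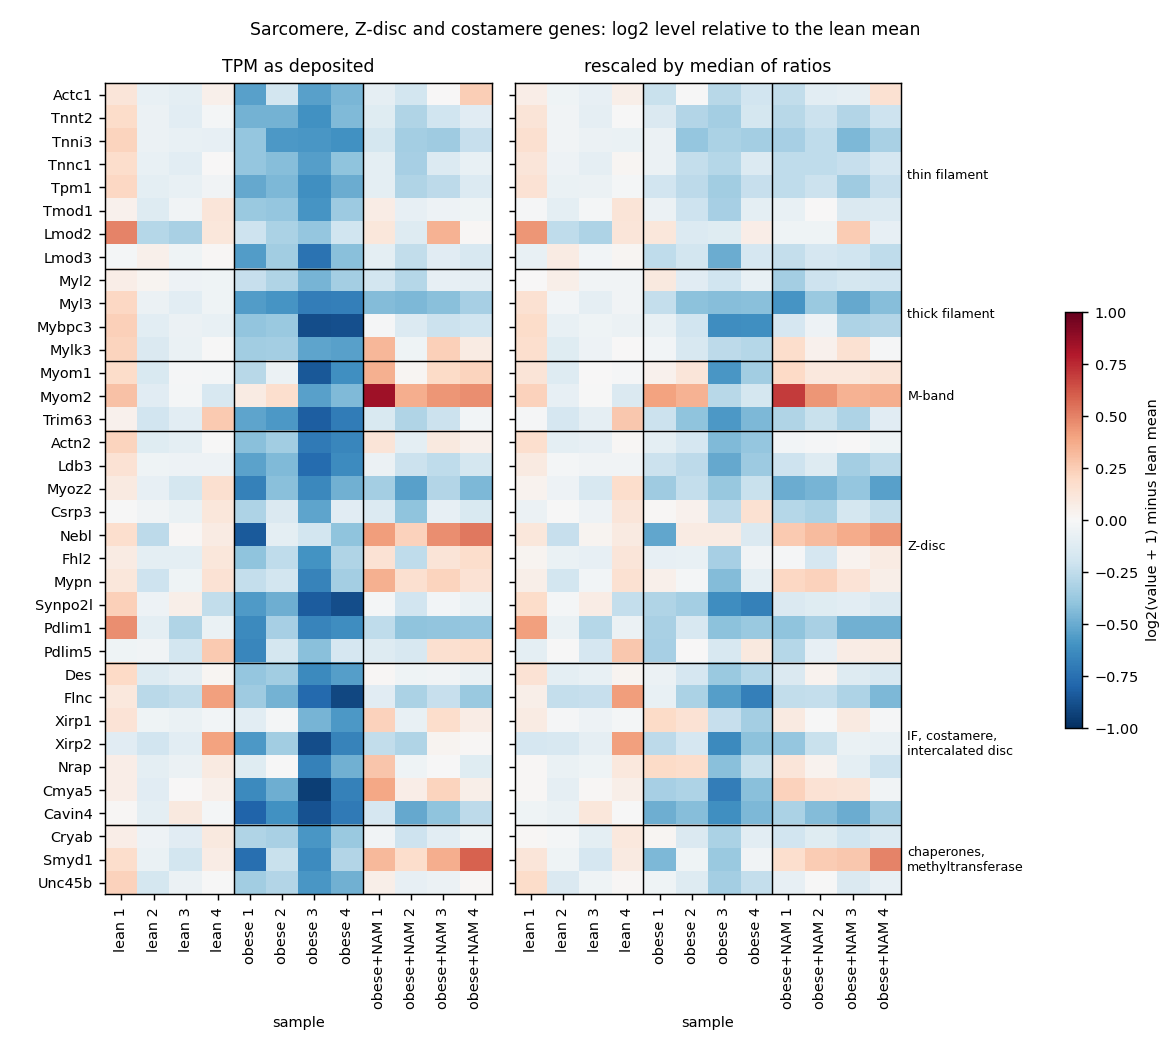
Heat map of log2(value + 1) minus the lean mean for the 35 genes (lines) in the 12 samples (columns), as deposited on the left and rescaled on the right; blue is below and red above the lean mean. Obese replicate 3, lowest of its group in 25 genes as deposited and 26 rescaled, is the bluest column, and Myom2, Nebl and Smyd1 are red in all 4 NAM-treated samples.

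Ratios of a pair of these genes within a sample do not depend on how the sample was scaled. Over 13 ratios and 3 comparisons, 6 of 39 exact 2-sided permutation tests reached 0.0286, the smallest p that 4 against 4 samples allow, and 0 passed after adjustment over the 39 (adjusted p = 0.186 for those 6). A ratio that misses the threshold in this design is not shown to be equal between groups. In all 6 the groups did not overlap. Their sign was therefore bound to hold with any of the 12 samples left out, and that check says nothing about stability.

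The Myl2 to Myl3 ratio was 2.64, 3.10, 3.02 and 2.91 in lean, 3.67, 3.57, 3.42 and 3.69 in obese and 3.46, 3.26, 3.67 and 3.44 in NAM-treated hearts. Both obese groups lay above all lean samples and overlapped with each other (log2 difference 0.30 and 0.25 against lean). Myom1 to Myom2 was 0.216, 0.225, 0.234 and 0.255 in the lean group, 0.181, 0.198, 0.186 and 0.205 in the obese group and 0.164, 0.183, 0.196 and 0.197 with NAM, lower than every lean sample in both obese groups (-0.27 and -0.33). Cmya5 to Actn2 was 0.143, 0.159, 0.170 and 0.165 in lean, 0.134, 0.143, 0.132 and 0.154 in obese and 0.191, 0.178, 0.174 and 0.160 in NAM-treated hearts. There the obese and NAM-treated samples did not overlap (0.32 with NAM), whereas lean samples overlapped with both.

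Within the troponin complex, Tnnt2 to Tnnc1 was 2.94 ± 0.0346 in lean hearts, 2.83 ± 0.0399 in obese ones and 2.91 ± 0.0837 after NAM (mean ± SD, n = 4), a log2 difference of -0.06 between obese and lean without overlap. Tnni3 to Tnnc1 was 1.09 ± 0.0435, 1.02 ± 0.0674 and 1.01 ± 0.0651 (exact permutation p from 0.0857 to 0.771). For Trim63 to Actn2 the values were 0.139 ± 0.0193, 0.125 ± 0.00638 and 0.119 ± 0.00912, with overlap in all 3 comparisons.

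**Figure D4:**
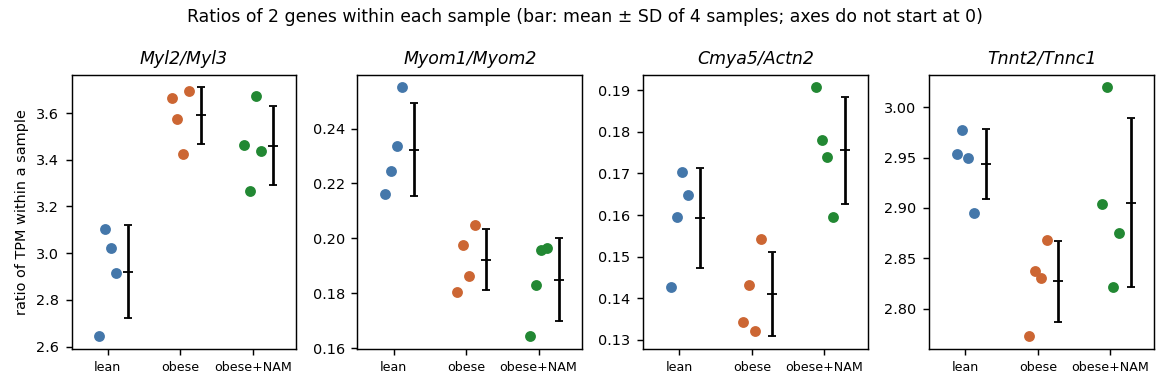
Ratio of TPM of 2 genes within each sample for Myl2/Myl3, Myom1/Myom2, Cmya5/Actn2 and Tnnt2/Tnnc1, with mean ± SD of each group of 4; axes do not start at 0. Lean samples stand apart from both obese groups for Myl2/Myl3 and Myom1/Myom2.

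For comparison with the wider apparatus, a further 77 sarcomere, membrane-skeleton and chaperone genes were listed, of which 74 were found and 66 tested. As deposited 30 fell and 1 rose between obese and lean hearts, 31 rose and 1 fell with NAM, and 1 was higher and 4 lower in NAM-treated than in lean hearts. The shares of all genes were 16.5% and 0.352%, 28.8% and 0.466%, and 0.865% and 0.969%. After rescaling the counts were 4 lower and 1 higher, 2 higher and 2 lower, and 1 higher and 4 lower. There the shares of all genes were 0.751% and 0.589%, 0.2% and 0.513%, and 0.77% and 1.59%. Their median change was -0.31 between obese and lean and 0.29 with NAM as deposited, -0.07 and 0.04 rescaled. The medians of all genes tested were -0.20 and 0.25 as deposited, 0.00 and -0.01 rescaled.

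Between obese and lean, the myomesin Myom3 fell on both scales (-0.89 and -0.73 rescaled, adjusted p = 0.00246 and 0.0336). It stood at 3.35, 3.10, 3.42 and 3.55 TPM in lean, 1.66, 1.11, 1.75 and 0.944 in obese and 2.24, 1.91, 1.32 and 1.69 in NAM-treated hearts. The myosin heavy chains Myh6 and Myh7 were called in opposite directions (-1.52 and 0.92 rescaled, adjusted p = 0.00120 and 0.0160). With NAM, Fbxo32 (atrogin), like Trim63 a muscle ubiquitin ligase component, rose on both scales (0.85 and 0.54, adjusted p = 0.00292 and 0.0484). It stood at 18.4, 16.3, 18.7 and 12.6 TPM in lean, 11.4, 12.9, 9.87 and 11.5 in obese and 23.0, 19.9, 22.2 and 20.0 in NAM-treated hearts. Tmod2, the neuronal relative of Tmod1, fell (-0.51 and -0.74, adjusted p = 0.0143 and 0.0235), and Myh6 rose (0.71 rescaled, adjusted p = 0.0433). In NAM-treated against lean hearts Myh7 was higher and Myh6, Lims2 and Myom3 lower on both scales, by 1.16, -0.81, -0.71 and -0.68 rescaled.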

How the data were processed

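Per the submitters' processing notes, the authors used Rnor_6.0 and limma; versions, aligner and quantifier were not given in the sources used here. Per the labels, libraries were strand-specific (NEBNext Ultra II). The deposited TPM table holds 17602 genes; 498 of them carry a text mark in place of numbers in the NAM-treated columns and were left out, none of the genes described among them. No read counts were used.

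Kept genes reached 1 TPM or more in 4 or more of the 12 samples. limma 3.58.1 (R 4.3.3) then modelled log2(TPM + 1) on 3 group means, leaving 9 residual degrees of freedom, with a trended, robust variance prior (statmod 1.5.0). Tests were 2-sided, with Benjamini-Hochberg adjustment over all genes tested in a comparison, on deposited and on rescaled values. Log2(TPM + 1) understates changes of low genes. Ratios were compared by exact permutation over samples (SciPy 1.17.1). The fit was tested on simulated data.

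The genes, lists and tests were chosen with earlier results of these data known. Sample-by-sample values are given for genes called after rescaling, for the most abundant gene and the genes with the smallest p in each class, and for both genes of the ratios with the lowest adjusted p. Those of Nebl, Myom3 and Fbxo32 were added after their values were seen, as were the genes whose promoters are printed. Alternatives covered the pseudocount, the filter, the scaling, the variance prior, the samples fitted, a replicate block and each sample left out.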

Additional observations from a re-analysis of the deposited data

Results flagged for a closer look

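Of 144 groups of 4 values (35 genes and 13 ratios in 3 groups), 10 held 1 sample far from the other 3 by Dixon's criterion, which marks about 1 in 20 by chance. Lean replicate 1 was the high sample for Tnni3 (2540.3 TPM), Mybpc3 (297 TPM) and Ldb3 (169 TPM), and lean replicate 4 for Xirp2 (40.7 TPM). In the obese group replicate 1 was high for Tnni3 (1672 TPM) and for the Actn2 to Actc1 ratio (0.0742), replicate 2 was high for Pdlim1 (23.7 TPM) and replicate 3 was low for Tmod1 (36.9 TPM). Among NAM-treated samples replicate 1 was high for Pdlim1 (25.1 TPM) and replicate 2 low for Fhl2 (412 TPM).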

How the results depend on the processing

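With all samples, pseudocounts of 0.1 and 5 left each count of called genes within 1.5 times of the reported one. As deposited, the 26 falls in obese hearts became 2 when mitochondrially encoded genes were taken out of the total and 4 after rescaling. The 27 rises with NAM became 5 and 1. Calls over all genes dropped as well, from 1733 of 10526 to 30 of 13229 and 79 of 10526 for falls. For rises they went from 3028 to 169 and 21. More genes were tested without mitochondrially encoded ones because the 1 TPM filter was applied to the new values. Against lean, the 2 lower genes of NAM-treated hearts became 5 after rescaling, and 1 with no filter, with the plain variance prior or in a fit to the 8 samples compared. Over all genes 102 lower ones became 167, 70, 71 and 82 in these settings. The 0 higher ones became 3 without mitochondrially encoded genes (Myom2, Nebl and Smyd1), where those over all genes went from 91 to 479. On rescaled values, the 4 falls in obese hearts became 8 with a filter at a mean of 5 TPM, and 1 with the plain prior or the fit to 8 samples. Over all genes the 79 falls became 114 of 5004 tested with that filter, 49 and 30. The 1 rise with NAM (Cmya5) became 2 with that filter and 0 with the plain prior, the fit to 8 samples or the replicate block (adjusted p = 0.0501). Among all genes the 21 rises became 42, 4, 5 and 6. Against lean, the 5 lower genes became 3 with the plain prior, and the 0 higher ones 1 (Myom2) in the fit to 8 samples. For the NAM change, rescaling turned the sign of the called genes Tnnt2 (-0.0085), Tnni3 (-0.063), Tnnc1 (-0.047), Tpm1 (-0.0040), Myl3 (-0.10) and Cryab (-0.026). The cause was not tested beyond what each setting changes by construction.

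With each sample left out in turn, the deposited counts ran from 23 to 30 for falls in obese hearts, 22 to 29 for rises with NAM and 0 to 2 for genes lower than lean with NAM. The rescaled ones ran from 1 to 7, 0 to 2 and 3 to 7. Over all genes the deposited counts ran from 984 to 1928, 1834 to 3593 and 40 to 94. Rescaled falls over all genes ran from 14 to 104. Rescaled rises with NAM over all genes were 18, 9 and 12 without lean replicates 1, 2 and 3, against 21 with all samples. The other rescaled counts over all genes are not given here. Samples with the same replicate number did not deviate together (r from -0.05 to 0.07 over 12 pairs, 0 of them above 0.1), so no pairing by number was seen. Correlations over all genes cannot show a pairing that touches few genes. With the replicate block the counts were 26, 28 and 2 as deposited and 3, 0 and 5 rescaled. Over all genes the deposited counts were then 1385, 2510 and 88, against 1733, 3028 and 102 without the block. Rescaled falls over all genes were 61 against 79, and rescaled rises 6 against 21. Under the block the deposited call below lean with NAM ended for Myoz2 (adjusted p = 0.0789) and Tnni3 was newly called (0.0459), Pdlim5 was newly called as a rise with NAM (0.0374), and the rescaled fall of Cmya5 in obese hearts ended (0.0649). Read depth is unknown from TPM. Of the ratios 0 passed after adjustment with all samples. With a sample left out none could pass. The smallest p that so few samples allow stays above the threshold once adjusted over the 39 tests.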
